A study of Mus musculus with 4 samples.

Results

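The genes described here were 10 lysosomal genes, 8 proteases (Ctsb, Ctsd, Ctsl, Ctss, Ctsz, Ctsh, Ctsk and Lgmn) and 2 membrane proteins (Lamp1 and Lamp2). They were taken by symbol from the 32285 genes of the matrices, and each symbol was found once. Left ventricles of male C57BL/6J mice were profiled by droplet 3′ RNA sequencing in 4 libraries, 1 per condition. The young sham library came from mice of 3 to 5 months and the aged sham library from mice of 24 to 26 months. The young I/R and aged I/R libraries came from mice of the same ages after 45 min of coronary artery ischemia and 24 h of reperfusion. All mice were wild type with no drug named, the labels call the sham tissue healthy and unaltered where the study describes sham operations, and the number of mice in a library is not given in the sources used here.

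Levels were counts per 1000000 (CPM), the unique molecular identifiers (UMIs) of a gene over all barcodes of a library per 1000000 UMIs of that library. With 1 library per condition no test was made and no p-value is given. The 95% intervals, in parentheses after a value, cover counting error only, so that a ratio whose interval lies off 0 tells 2 libraries apart and not 2 conditions. A ratio was called at 1.5-fold or more when both libraries together held at least 100 UMIs of the gene. The UMIs mark the 3′ ends of molecules and the levels were not divided by gene length, so levels are compared between libraries and not between genes. In such sums, fewer cells of a type and less RNA per cell cannot be told apart.

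The libraries held 91124 to 102883 barcodes and 25836175 (young sham) to 66767829 (aged I/R) UMIs. All 16 cardiomyocyte markers were detected in every library, with a summed level of 79766 to 103182 CPM. The median barcode held 244 to 675 UMIs, and whether each barcode held a cell was not tested, which bears on every value below that groups or counts barcodes. Between 7.44% and 7.92% of the barcodes of a library had a sequence also present in another library. The RNA named in the labels is nuclear, where the study describes whole cells. Malat1, a transcript retained in the nucleus, took 7.34% of UMIs after sham and 2.22% after I/R in the young pair, and 2.88% and 4.33% in the aged pair. The mitochondrial share was 10.00%, 14.1%, 15.6% and 9.98% in the same order, and 80 ribosomal protein genes summed to 21528, 29138, 31496 and 26274 CPM. The 3 measures separated young I/R and aged sham from the other 2 libraries, the first downwards and the others upwards, and several of the lysosomal genes showed the order of the ribosomal genes. The part of these differences in the results was not tested.

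Lysosomes are acidic organelles that break down proteins, lipids and whole organelles delivered by endocytosis and autophagy, and the heart relies on them for the turnover of mitochondria in long-lived myocytes. Cathepsins are made as inactive precursors, sorted to the lysosome through mannose 6-phosphate, and activated there at low pH by each other or by legumain, the product of Lgmn. LAMP1 and LAMP2 are heavily glycosylated proteins that line the lysosomal membrane, and loss of LAMP2 causes Danon disease, a cardiomyopathy with stalled autophagy. Most cells hold cathepsins B, D and L, while cathepsin S is best known from antigen-presenting cells and cathepsin K from osteoclasts.

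In young mice 7 of the 10 genes were higher after I/R with an interval off 0, namely Ctsb, Ctsd, Ctsl, Ctss, Ctsz, Lgmn and Lamp1. These 7 were also higher in aged sham than in young sham, and Ctsb, Ctsd, Ctsz, Lgmn and Lamp1 were lower after I/R in aged mice. No share of all genes with an interval off 0 was set beside these counts. Such an interval can lie off 0 at a small ratio, as for Lamp1 in young mice at 0.13 (0.075 to 0.18). Ctss had its highest level in aged I/R, 3.02-fold above young I/R. Ctsh and Ctsk were lowest in young I/R. Lamp2 stayed within 1.13-fold over the 4 comparisons. These statements hold for levels per total UMIs. Relative to ribosomal protein genes, Ctsb and Ctsl alone of the 7 kept an interval above 0 after I/R in young mice, Lamp1 turned lower, and Ctsd, Ctss, Ctsz and Lgmn had intervals that held 0. On that scale Lamp2 had a log2 ratio of -0.46 (-0.53 to -0.39) in young I/R over young sham and of -0.46 (-0.54 to -0.39) in aged sham over young sham. The medians of all genes on that scale were lower, at -0.88 and -0.69, and the median was 0.35 in aged I/R over aged sham. Ctsd and Lamp1 were slightly lower in aged sham than in young sham, at -0.032 (-0.064 to -0.00084) and -0.065 (-0.12 to -0.014), and Lgmn was higher after I/R in aged mice, at 0.11 (0.0084 to 0.22).

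**Figure D1:**
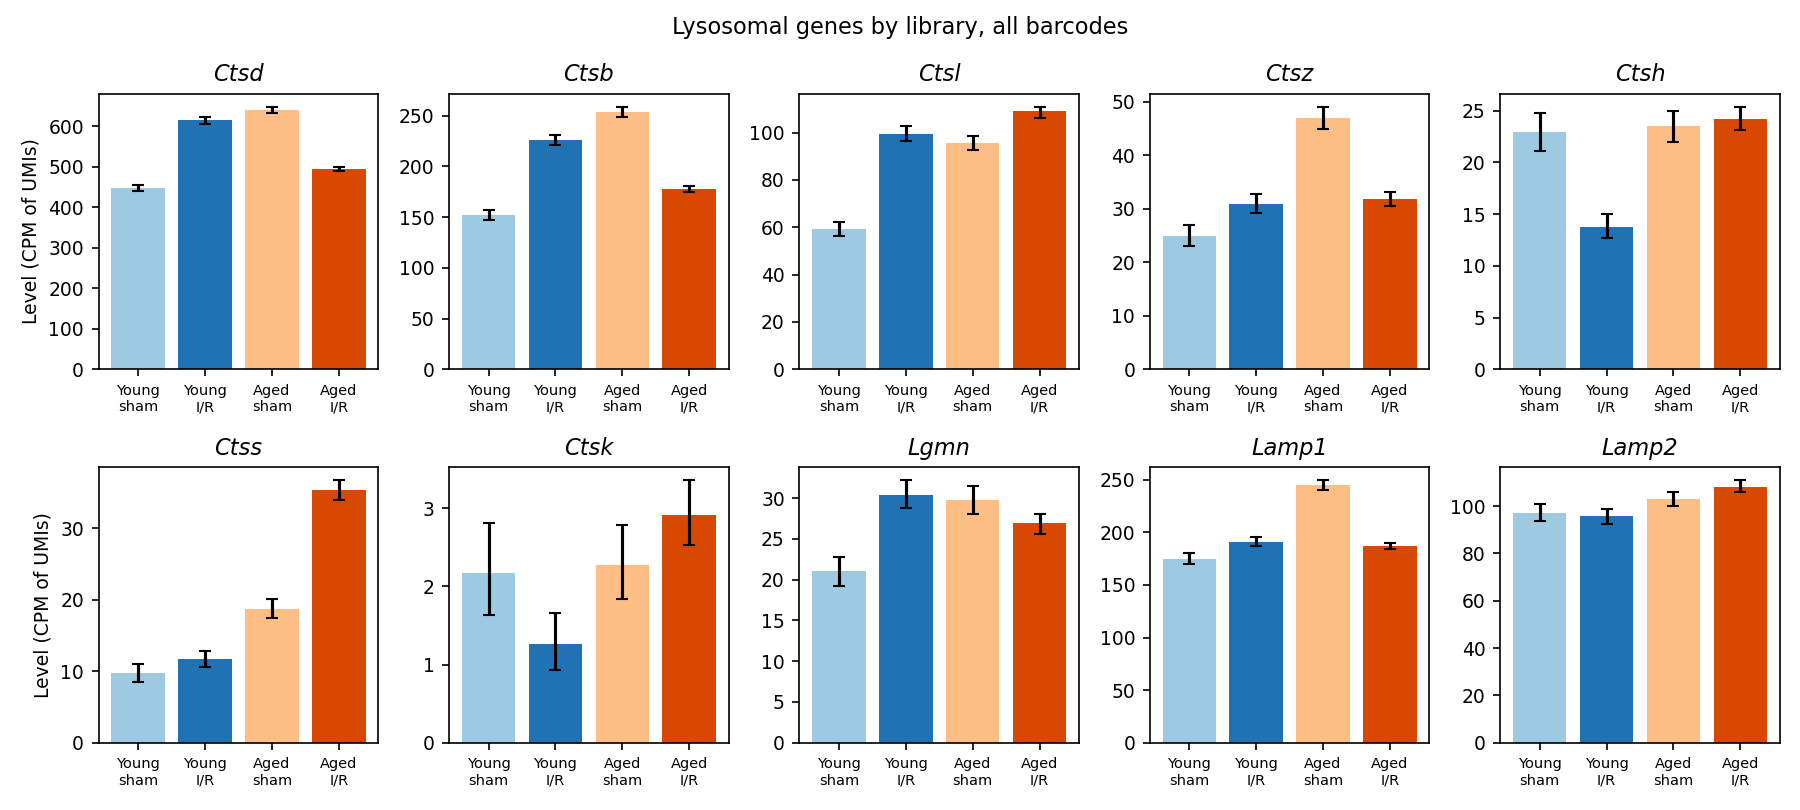
Level of each gene in CPM of UMIs in the 4 libraries, each panel with its own linear axis from 0; bars are 1 library each and error bars are 95% Poisson counting intervals. Ctsd, Ctsb and Lamp1 peaked in aged sham at 641, 254 and 245 CPM, and Ctss in aged I/R at 35.3 CPM.

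Ctsd encodes cathepsin D, the aspartic protease that makes the first cuts in many lysosomal substrates, and it gave between 41.3% and 46.7% of the UMIs of the 10 genes. Its level was 448 CPM (440.0 to 456) for young sham against 615 (607 to 623) for young I/R, with 641 (633 to 649) for aged sham and 495 (489 to 500.1) for aged I/R. Young I/R and aged sham were thus high and the other 2 libraries low, and no interval overlapped another. I/R over sham was 1.37-fold in young hearts, a log2 ratio of 0.46 (0.42 to 0.49), and 0.772-fold in aged hearts, a log2 ratio of -0.37 (-0.40 to -0.35).

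Ctsb encodes cathepsin B, a cysteine protease that also trims peptides from their carboxyl end. Its level was 152 CPM (147 to 157) after sham and 226 (221 to 231) after I/R in the young pair, and 254 (249 to 259) and 178 (175 to 181) in the aged pair. The order of the libraries was that of Ctsd. The I/R-to-sham log2 ratio was 0.57 (0.52 to 0.63) in young and -0.52 (-0.55 to -0.48) in aged hearts, 1.49-fold and 0.700-fold, and aged sham was 1.67-fold above young sham.

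Ctsl encodes cathepsin L, an endopeptidase that also processes other lysosomal enzymes. Its level was 59.3 CPM (56.4 to 62.4) for young sham against 99.6 (96.5 to 103) for young I/R, with 95.5 (92.5 to 98.5) for aged sham and 109 (106 to 111) for aged I/R. Young sham alone was low, and Ctsl was the single gene of the 10 called higher after I/R in young hearts, at 1.68-fold. The log2 ratio of aged I/R over aged sham was 0.19 (0.13 to 0.25), of the same sign as in young hearts.

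Ctsz encodes cathepsin Z, a carboxypeptidase, and its level was 24.9 CPM (23.0 to 26.9) after sham and 30.9 (29.2 to 32.7) after I/R in the young pair, and 47.0 (44.9 to 49.1) and 31.8 (30.5 to 33.2) in the aged pair. Aged sham stood alone, 1.89-fold above young sham, and the 2 I/R libraries had overlapping intervals. I/R over sham was 1.24-fold in young and 0.677-fold in aged hearts.

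Ctsh encodes cathepsin H, an aminopeptidase. It was at 22.9 CPM (21.1 to 24.8) for young sham against 13.8 (12.7 to 15.0) for young I/R, with 23.5 (22.0 to 25.0) for aged sham and 24.2 (23.1 to 25.4) for aged I/R. Young I/R was low and the other 3 libraries overlapped. Young sham was 1.66-fold above young I/R, while aged I/R over aged sham gave a log2 ratio of 0.043 (-0.072 to 0.16).

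Ctss encodes cathepsin S, which cuts the invariant chain from MHC class II molecules and stays active at neutral pH. Its level was 9.68 CPM (8.51 to 11.0) after sham and 11.7 (10.6 to 12.8) after I/R in the young pair, and 18.7 (17.4 to 20.1) and 35.3 (33.9 to 36.7) in the aged pair. The 2 young libraries overlapped, aged sham lay above both and aged I/R above all 3. Aged I/R over aged sham was 1.89-fold, a log2 ratio of 0.92 (0.80 to 1.04), and young I/R over young sham 1.21-fold, a log2 ratio of 0.27 (0.045 to 0.50).

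Ctsk encodes cathepsin K, a collagen-cutting protease, and was sparse, with 56 UMIs for young sham against 50 for young I/R, with 94 for aged sham and 195 for aged I/R. These gave 2.17 CPM (1.64 to 2.81), 1.26 (0.935 to 1.66), 2.27 (1.84 to 2.78) and 2.92 (2.53 to 3.36). Young I/R was the lowest library and its interval touched that of young sham. Aged I/R over young I/R was 2.32-fold, with a log2 ratio of 1.21 (0.76 to 1.69), and aged I/R could not be told from aged sham at this depth, with a log2 ratio of 0.36 (-0.00059 to 0.73).

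Lgmn encodes legumain, which cuts after asparagine and matures several cathepsins. It was at 21.0 CPM (19.2 to 22.8) after sham and 30.4 (28.8 to 32.2) after I/R in the young pair, and 29.8 (28.1 to 31.5) and 26.9 (25.6 to 28.1) in the aged pair. Young sham was low and the other 3 libraries were close, with young I/R and aged sham overlapping. The I/R-to-sham log2 ratio was 0.54 (0.39 to 0.69) in young and -0.15 (-0.25 to -0.042) in aged hearts.

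Of the membrane proteins, Lamp1 was at 175 CPM (170.1 to 180.3) for young sham against 191 (187 to 196) for young I/R, with 245 (240.2 to 249.7) for aged sham and 187 (184 to 190.1) for aged I/R. Aged sham stood above the rest, 1.40-fold over young sham. Lamp2 was at 97.3 CPM (93.6 to 101) after sham and 95.7 (92.6 to 98.7) after I/R in the young pair, and 103 (100.2 to 106) and 108 (106 to 111) in the aged pair. The 2 young libraries overlapped for Lamp2, and its I/R-to-sham log2 ratio was -0.025 (-0.098 to 0.048) in young and 0.068 (0.013 to 0.12) in aged hearts.

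The first comparison, young I/R against young sham, addresses the response of the young heart to reperfusion injury. At 1.5-fold, 5.35% of the 12465 genes with enough UMIs were called higher, as was Ctsl alone among the 10, and 41.9% were called lower, as were Ctsh and Ctsk. The median log2 ratio was 0.29 over the 10 genes and -0.44 over all genes, and 8 of the 10 lay above the latter. The ratios of Ctsl, Ctsb and Lgmn were above those of 96.2%, 94.5% and 94.1% of genes. After the median gene was set to no change, which adds 0.41 to each log2 ratio, 6 of the 10 were called higher against 15.9% of genes and none lower against 22.5%.

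The same comparison in aged hearts asks whether the injured aged heart responds in the same way. Higher calls covered 14.4% of 13722 genes and Ctss alone among the 10, and lower calls covered 7.43% of genes and none of the 10. The median was -0.052 over the 10 genes and 0.087 over all genes, with 3 of the 10 above it. Ctsb lay above 9.63% of genes and Ctsz above 8.23%, near the low end, and Ctss above 95.2%. When the median gene was set to no change, Ctsb and Ctsz were the 2 genes called lower, against 9.66% of genes, and Ctss was still called higher, against 11.6%.

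The effect of age in uninjured hearts was read from aged sham over young sham. Ctsb, Ctsl, Ctss and Ctsz were called higher, 4 of 10, where 6.12% of 12901 genes were, and none of the 10 was called lower, where 16.9% of genes were. The median was 0.51 over the 10 genes against -0.14 over all genes, and all 10 lay above it. Ctss and Ctsz were above 98.2% and 98.0% of genes. With the median gene set to no change, 7 of the 10 were called higher and none lower, against 10.3% of genes in each direction. This comparison shares the young sham library with the first, so that a low value there would raise both. It also shares the aged sham library with aged I/R over aged sham. A high value in aged sham would raise the ratio with age and lower the ratio after I/R in aged hearts, so these results are not independent.

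Between the injured hearts, aged I/R over young I/R, 39.3% of 13434 genes were called higher and 3.29% lower. Ctss, Ctsh and Ctsk were called higher and none of the 10 lower, so the share of the genes called was close to that of all genes. The median of the 10 genes was 0.085 against 0.43. Ctss, at a log2 ratio of 1.60 (1.45 to 1.74), was above 95.6% of genes, whereas Ctsb and Ctsd, at -0.35 and -0.31, lay above 7.88% and 8.81%. With the median gene set to no change, 2 of the 10 were called higher against 19.6% of genes and 2 lower against 11.1%.

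**Figure D2:**
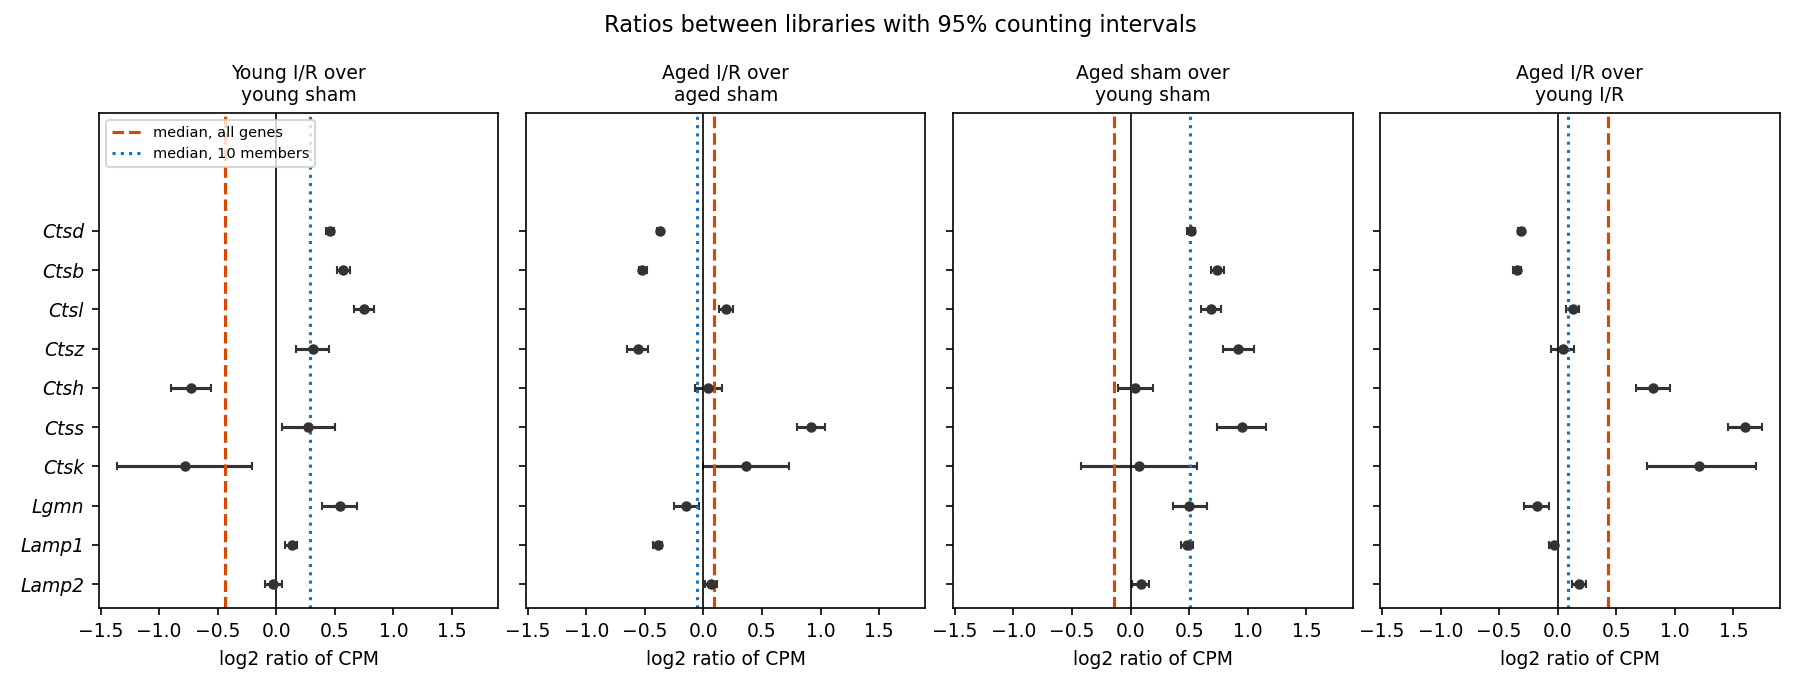
Log2 ratio of CPM in each comparison for the 10 genes, with 95% counting intervals; the dotted line is their median and the dashed line the median of all genes with enough UMIs. In aged sham over young sham all 10 points lie to the right of the dashed line, at -0.14, and in aged I/R over young I/R Ctss lies farthest to the right, at 1.60.

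Subtracting the young from the aged I/R-to-sham log2 ratio gave a difference of -1.09 (-1.15 to -1.02) for Ctsb, -0.87 for Ctsz, -0.83 for Ctsd, -0.69 for Lgmn, -0.56 for Ctsl and -0.52 for Lamp1. For these 6 genes the aged pair of libraries showed a smaller gain or a lower level after I/R, although relative to ribosomal protein genes the difference was 0.14 for Ctsl, 0.18 for Lamp1 and 0.013 for Lgmn. The difference was 0.65 (0.40 to 0.90) for Ctss, 0.77 for Ctsh, 1.14 (0.49 to 1.80) for Ctsk and 0.093 (0.0024 to 0.18) for Lamp2. These lay above the differences of 54.6%, 60.3%, 74.8% and 30.8% of genes. With the median gene set to no change, the difference was 0.17 (-0.081 to 0.42) for Ctss and -0.38 (-0.47 to -0.29) for Lamp2. Relative to ribosomal protein genes it was 1.34 for Ctss and 0.79 for Lamp2. Per total UMIs the median difference was -0.54 for the 10 genes and 0.54 for all genes.

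**Figure D3:**
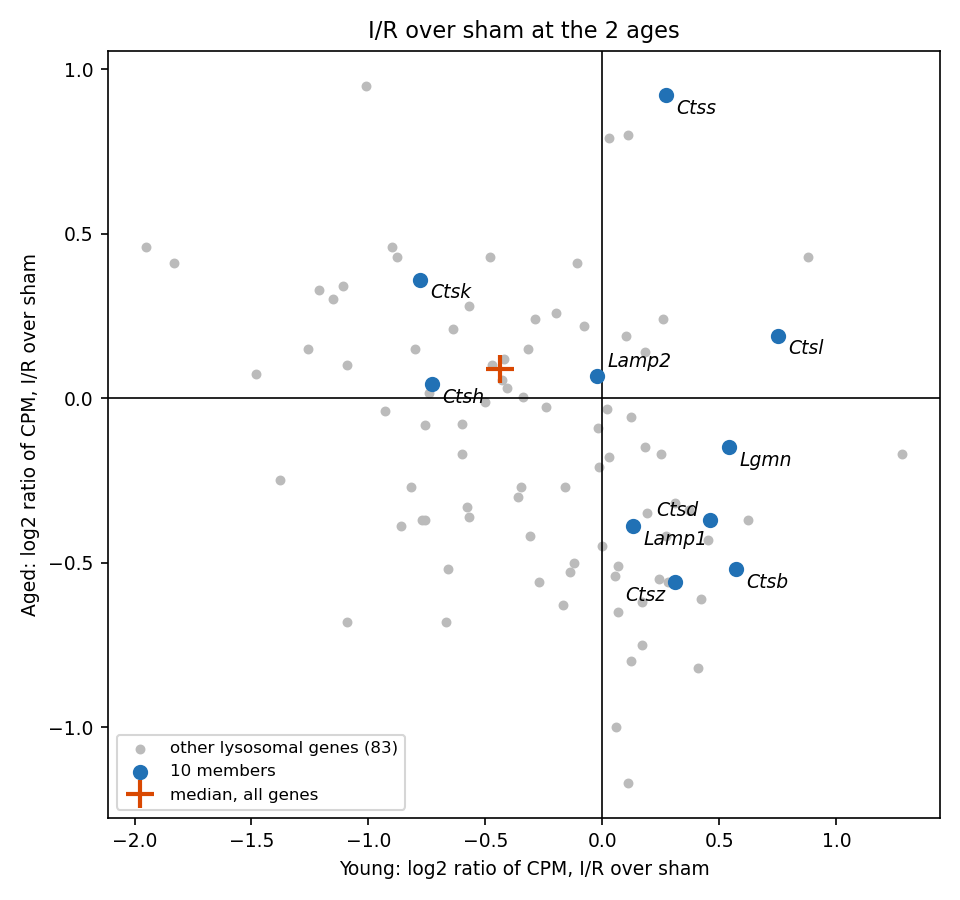
Log2 ratio of I/R over sham in young hearts (x axis) and aged hearts (y axis) for the 10 genes in blue, 83 other lysosomal genes in grey and the median of all genes as a cross. Ctsb, Ctsd, Ctsz, Lgmn and Lamp1 lie in the lower right, higher after I/R in young and lower in aged hearts. Relative to ribosomal protein genes Ctsb and Ctsd kept these signs, with both intervals off 0 for Ctsb alone. Ctss is the highest of the 10 in aged hearts, at 0.27 and 0.92.

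The direction of several genes depended on what the UMIs were scaled to. Relative to the 80 ribosomal protein genes, which encode the protein part of cytosolic ribosomes, Ctsd differed little between the libraries, with log2 ratios of 0.02 for young I/R over young sham, -0.11 for aged I/R over aged sham and -0.032 for aged sham over young sham. Lgmn had 0.10, 0.11 and -0.044 in the same comparisons, and Ctsb 0.14, -0.25 and 0.19. In young I/R over young sham Lamp1 turned lower, at -0.31 (-0.36 to -0.26), while the intervals of Ctss, at -0.17 (-0.39 to 0.061), and Ctsz, at -0.13 (-0.26 to 0.014), held 0. On this scale the median of the 10 genes in aged sham over young sham was -0.038, where that of all genes was -0.69, and none of the 10 was called higher, against 1.13% of genes. Ctss kept a log2 ratio of 1.18 in aged I/R over aged sham and 1.75 in aged I/R over young I/R. The medians of all genes there were 0.35 and 0.58. Ctsh had -1.17 in young I/R over young sham, where the median of all genes was -0.88 and 67.4% of genes were called lower. This scale was chosen after the values were seen.

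Genes with a profile like that of a member were sought among 9909 genes with at least 1000 UMIs, by the largest gap between log2 levels centred over the 4 libraries. The gene closest to Ctsb was Rps19, a ribosomal protein gene, at 0.022, followed by Tmem43, and 204 genes lay within 0.2. Closest to Ctsd were Sgk1 and Cox19, with 529 genes within 0.2, and closest to Lamp1 were Atp6v1c1, a subunit of the proton pump, and Bcap31, with 670. Ctsl was closest to Srgn and P4hb, with 37 genes within 0.2, and Ctsz to Icam1 and Pld3, with 90. Ctss had the fewest genes within 0.2, with Abat at 0.198 as the single one and Gm12295 next. Such counts were not corrected for the range of a profile. Ctss went from 9.68 to 35.3 CPM, while Lamp2, from 95.7 to 108 CPM, had 1445 genes within 0.2. The pairs Gnpda2 and Mrvi1 for Ctsh, Mmrn1 and Ap1s2 for Ctsk, Ostc and Rpl10a for Lgmn, and Usp22 and Zdhhc3 for Lamp2 complete the list. Among the members Ctsb and Ctsd were the closest pair, at 0.119, and Ctsd and Lgmn followed at 0.144. With 4 libraries such likeness is a description only.

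Cathepsin S and other members are abundant in macrophages, so the levels of 19 macrophage markers were set beside them. Every marker was detected in each library, and together they were at 442 CPM for young sham against 324 for young I/R, with 534 for aged sham and 579.7 for aged I/R. In aged I/R over young I/R, where Ctss was 3.02-fold higher, 15 of the 19 were called higher and 39.3% of all genes were. In aged I/R over aged sham, where Ctss was 1.89-fold higher, the summed log2 ratio of the markers was 0.12, with 4 called higher and 4 lower, where 14.4% and 7.43% of all genes were. In aged sham over young sham 6 of the 19 were called higher and 1 lower, where 6.12% and 16.9% of all genes were. The median log2 ratio of the markers there was 0.48, against 0.51 for the 10 lysosomal genes and -0.14 for all genes. Per 1000 macrophage marker UMIs, Ctss had 21.9 UMIs after sham and 36.0 after I/R in the young pair, and 35.0 and 60.9 in the aged pair. By this measure aged I/R was the highest library for Ctss. Of other lysosomal genes of myeloid cells, Cd68 was also highest there, at 9.80, 14.5, 10.6 and 17.1. Laptm5 was lowest there, at 52.9, 75.0, 74.6 and 47.4. The markers went both ways in the aged pair, so this is not a level per macrophage. The part of macrophage content was not tested. Ctsz had 56.4, 95.5, 88.0 and 54.9, Lgmn 47.4, 94.0, 55.7 and 46.3, and Ctsh 51.7, 42.6, 44.0 and 41.8 per 1000, without a peak in aged I/R. The 10 neutrophil markers were at 14.9, 113, 25.4 and 108 CPM, high in both I/R libraries. The 15 fibroblast markers were at 957, 637, 1184 and 1022 CPM.

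Barcodes were then grouped by the markers they held. A barcode counted as macrophage marker-positive when it had UMIs of at least 2 different macrophage markers and of more than for any other non-myocyte class. In the order young sham, young I/R, aged sham, aged I/R there were 799, 639, 1537 and 3127 such barcodes, and they held 1.11%, 0.741%, 1.82% and 3.75% of all UMIs. Their number depends on the depth of a library and was not compared. They held 1.20%, 0.216%, 3.36% and 4.54% of the Ctss UMIs, so that over 95% of the Ctss UMIs of each library came from other barcodes. Among those others were undecided barcodes, whose markers did not settle a class, which were 50.3%, 52.6%, 56.0% and 51.6% of all barcodes. Whether the Ctss RNA in the other barcodes came from macrophages was not tested. The level of Ctss in macrophage marker-positive barcodes was 10.5 CPM (2.16 to 30.7), 3.40 (0.0861 to 19.0), 34.6 (22.6 to 50.7) and 42.7 (35.0 to 51.6). In barcodes with no non-myocyte marker it was 10.3 CPM (8.32 to 12.7), 12.2 (10.3 to 14.2), 19.0 (15.9 to 22.4) and 35.1 (29.5 to 41.5). The 2 barcode groups overlapped in 3 of the libraries. In aged sham the ratio was 1.82-fold, a log2 ratio of 0.87 (0.20 to 1.48), and with 3 different markers required 2 Ctss UMIs were left, too few to tell, with a log2 ratio of -0.024 (-3.08 to 1.86).

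UMIs of the other genes were also not confined to macrophage marker-positive barcodes, though these groups were not shown to be cell types. Ctsb was at 157, 228, 266 and 176 CPM in macrophage marker-positive barcodes and at 151, 224, 262 and 189 CPM in barcodes with no non-myocyte marker. Of 34 pairs of a member and a library with over 3 UMIs in the macrophage group, 3 had an interval above 0 and none below. These were Ctsh in young sham at 2.01-fold, Ctss in aged sham at 1.82-fold and Ctsz in aged I/R at 1.39-fold. With 3 different markers required, 1 of 23 such pairs had an interval above 0, and with markers read after thinning 0 of 32 had. With 2 markers, 1 of 38 pairs in the fibroblast group had an interval above 0 and 4 below. In the endothelial group 1 of 40 lay above and 2 below. In the mural group 0 of 37 lay above and 1 below, and in the neutrophil group 0 of 11 lay above and 0 below. No share of all genes was set beside these counts. For scale, Myh6, the main myosin of mouse ventricular myocytes, was at 0.916 to 1.03 times its no-marker level in the macrophage group.

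**Figure D4:**
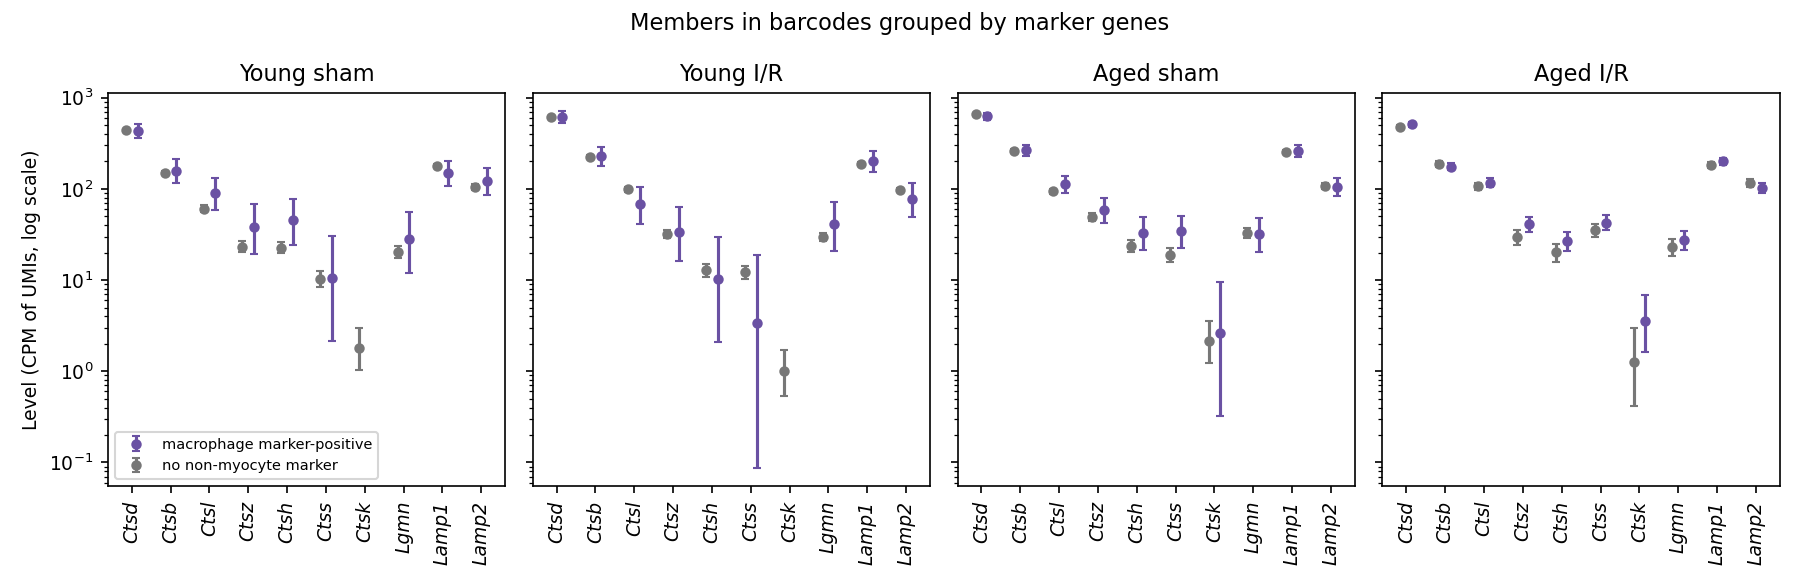
Level of the 10 genes in CPM of UMIs (log axis) in macrophage marker-positive barcodes, purple, and in barcodes with no non-myocyte marker, grey, with 95% Poisson intervals; a group with no UMI has no point. The 2 groups lie close for Ctsd, Ctsb, Lamp1 and Lamp2 in every library, and the Ctss points of aged sham lie apart at 34.6 and 19.0 CPM.

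Ratios between libraries were also taken within barcodes that had no non-myocyte marker. There the I/R-to-sham log2 ratio for Ctsb was 0.57 (0.48 to 0.67) in young and -0.47 (-0.59 to -0.35) in aged hearts. For Ctss it was 0.24 (-0.15 to 0.63) and 0.89 (0.54 to 1.24), and aged I/R over young I/R was 1.53 (1.19 to 1.87). For Ctsh young I/R over young sham was -0.82 (-1.13 to -0.51). Each of these intervals held the value over all barcodes, and that of Ctss in young hearts also held 0.

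The share of barcodes with a Ctss UMI was 0.270% for young sham against 0.447% for young I/R, with 0.766% for aged sham and 2.55% for aged I/R, at median depths of 244, 374, 391 and 675 UMIs. After each barcode was thinned to 200 UMIs, with 25914, 4608, 4424 and 0 shallower barcodes left out, the shares were 0.205% (0.172 to 0.243), 0.219% (0.191 to 0.250), 0.346% (0.310 to 0.385) and 0.732% (0.678 to 0.789). Aged I/R remained highest and the 2 young libraries overlapped. In thinned barcodes with no non-myocyte marker the shares were 0.213%, 0.222%, 0.361% and 0.729%, the same level, with median depths before thinning of 288, 380.0, 399 and 676 UMIs. In thinned macrophage marker-positive barcodes a Ctss UMI was in 0 of 329 barcodes (0% to 1.11%), 0 of 173 (0% to 2.11%), 3 of 461 (0.134% to 1.89%) and 3 of 556 (0.111% to 1.57%), too few to tell them from the rest. No share of cells that express Ctss is read from these values, and the part of free RNA in the droplets was not tested. Among thinned barcodes Ctsd was present in 8.76%, 11.6%, 12.2% and 9.39% and Ctsb in 3.06%, 4.37%, 5.05% and 3.60%, in the order of their levels, where the unthinned shares rose with depth to 29.6% and 12.1% in aged I/R.

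The remaining lysosomal machinery was followed in 87 other genes of 8 lists by role. In young I/R over young sham 3 of 83 genes with enough UMIs were called higher and 26 lower, with a median of -0.27, where 5.35% of all genes were called higher and 41.9% lower. The 3 were Cd63, Cstb and Atp6v0c, the last of which was named after its value was seen. Of the hydrolases, which cleave sugars, lipids and sulfates, 12 of 30 were called lower and none higher, and of the other lysosomal proteases 4 of 8 were lower and none higher, both near the share of all genes. The 16 proton pump subunits had a median of 0.18 with 1 called in each direction. In aged I/R over aged sham 3 of 85 genes were called higher and 11 lower, with a median of -0.15, where 14.4% and 7.43% of all genes were. In aged sham over young sham 14 of 82 were higher and 6 lower, with a median of 0.17, where 6.12% and 16.9% of all genes were. In aged I/R over young I/R 24 of 84 were higher and 1 lower, with a median of 0.33, where 39.3% and 3.29% of all genes were. The median gene of all genes in these comparisons stood at -0.44, 0.087, -0.14 and 0.43. The median of the other lysosomal genes lay nearer to it than that of the 10 members in every comparison but aged I/R over aged sham. Single lists differed from this pooled median. In aged sham over young sham the luminal activators had 0.57 and the cystatins 0.71, against 0.51 for the members, and the remaining lists -0.51 to 0.32. In young I/R over young sham the cystatins had 0.42, against 0.29 for the members, and the remaining lists -0.92 to 0.18.

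Among the named genes of these lists, Cd63, a tetraspanin of late endosomes, had the highest young ratio. It was at 60.6 CPM after sham and 147 after I/R in the young pair, and 122 and 108 in the aged pair, with a log2 ratio of 1.28 (1.19 to 1.36) in young hearts. Manba, the beta-mannosidase, had the lowest, at 19.0, 4.94, 9.26 and 12.8 CPM and a log2 ratio of -1.95 (-2.19 to -1.70). In aged hearts Ppt1, a palmitoyl-protein thioesterase, was highest at 0.95 (0.86 to 1.05), with 41.3, 20.4, 28.8 and 55.8 CPM, and Laptm4b, a lysosomal transmembrane protein, lowest at -1.17 (-1.29 to -1.05), with 21.2, 22.9, 32.2 and 14.3 CPM. Both ends of the aged list thus differed from those of the young one.

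Psap and Cst3 were highest in aged sham, as Ctsb and Ctsd were. Psap, the precursor of the saposins that assist lipid hydrolases, was at 456 CPM for young sham against 556 for young I/R, with 634 for aged sham and 430.1 for aged I/R, its lowest library. Cst3, which encodes the secreted cathepsin inhibitor cystatin C, was at 435, 583, 709 and 464 CPM, with I/R-to-sham log2 ratios of 0.42 in young and -0.61 in aged hearts. Its libraries stood in the order of those of Ctsb and Ctsd. Cstb, the cytosolic inhibitor cystatin B, was at 9.56, 17.5, 11.0 and 14.8 CPM, high in both I/R libraries. Grn, the progranulin precursor, was at 54.0, 49.8, 77.6 and 54.7 CPM.

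Cd68 and Laptm5, lysosomal membrane proteins of myeloid cells, differed from each other. Cd68 was at 4.34 CPM after sham and 4.69 after I/R in the young pair, and 5.66 and 9.89 in the aged pair, the order of Ctss. Laptm5 was at 23.4, 24.3, 39.9 and 27.5 CPM, the order of Ctsz. Tfeb, the transcription factor that drives lysosomal genes, varied from 22.4 to 25.9 CPM, and its I/R-to-sham log2 ratio was -0.013 (-0.16 to 0.13) in young and -0.21 (-0.32 to -0.091) in aged hearts. The other 3 factors of that list, Tfe3, Mitf and Zkscan3, named after their values were seen, were called lower in young I/R over young sham, at -1.21, -0.64 and -1.83, as were 41.9% of all genes. Zkscan3 is a repressor of lysosomal genes.

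The members lie on 9 chromosomes of mouse genome build GRCm38 (mm10), with positions from GENCODE M21. Ctsk (chr3:95499256-95509362) and Ctss (chr3:95526786-95556403) are neighbours on the + strand, 17423 bases apart with no annotated gene wholly between them, and their profiles differed in the young libraries. Lamp1 (chr8:13159161-13175338), Ctsh (chr9:90054152-90076089) and Ctsb (chr14:63122462-63145923) are also on the + strand. Ctsz (chr2:174427493-174439039), Ctsd (chr7:142375911-142388038), Lgmn (chr12:102394084-102439813), Ctsl (chr13:64359337-64370890) and Lamp2 (chrX:38401357-38456454) are on the - strand. Ctsb overlaps Fdft1, Ctsz overlaps Nelfcd, Lamp1 overlaps Grtp1 and Ctsl overlaps the antisense gene Gm47123, each on the other strand. On the same strand GENCODE has Gm49369 over Ctsd, Gm49230 over Ctsl and Hmgb1-ps5 over Ctss. These have no entry of their own in the matrices, and no use of strand would separate their reads. The sources used here do not state whether counting used the strand, and without it reads of such partners cannot be told apart. The partners were at 15.8 to 19.5 CPM for Fdft1, 15.2 to 26.8 for Nelfcd, 0.781 to 2.83 for Grtp1 and 0.429 to 1.26 for Gm47123, so Nelfcd was the one of a level near that of its member.

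TFEB and its relatives bind an E-box with the core CACGTG, and the promoters of the members were searched for it because several of them had like profiles. RefSeq promoters of build GRCm38.p6, from 250 bases before to 50 after a gene start, were present for 8 of the 10 members in 9 windows. CACGTG, which reads the same on both strands, was found in Lamp1, Ctsd, Lgmn and Ctsl, 4 of the 8, and in 7.15% of 32851 promoters. The longer TCACGTGA, which contains it, was found in Ctsd alone among the members and in 0.974% of promoters. Lamp1 held 4 sites in the 70 bases before its start. The stretches that hold sites in these promoters are shown 5′ to 3′ on the strand of the gene, with the core in capitals, from chr8:13159091-13159160 (+) for Lamp1, chr7:142387908-142387937 (-) for Ctsd, chr12:102439124-102439153 (-) for Lgmn and chr13:64370739-64370768 (-) for Ctsl.
Lamp1: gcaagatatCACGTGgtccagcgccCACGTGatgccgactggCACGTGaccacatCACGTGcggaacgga
Ctsd: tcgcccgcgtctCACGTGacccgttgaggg
Lgmn: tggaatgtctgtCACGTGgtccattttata
Ctsl: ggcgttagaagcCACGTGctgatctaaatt
The Ctsd promoter holds a second site outside the stretch shown, and the Lgmn site lies in 1 of its 2 windows. By the GENCODE positions above, the stretches of Ctsd, Lgmn and Ctsl lie inside the gene, and that of Lamp1 overlaps no gene. GENCODE thus starts Ctsd, Lgmn and Ctsl farther upstream than the RefSeq starts of these windows. Ctss, Ctsk, Ctsz and Lamp2 held no such letters in their windows, and Ctsb and Ctsh were not in the table. A match describes the sequence and not the binding of a factor.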

How the data were processed

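The authors prepared libraries of left ventricle on the 10x Chromium 3′ platform and aligned and counted reads with Cell Ranger 6.0.2 against mm10, per the labels. The deposited matrices are its filtered output, and each deposited value is a raw, unscaled UMI count of 1 gene in 1 barcode. All deposited barcodes were used, with 91124 to 102883 in a library, and whether each held a cell was not tested. The labels gave the condition of each library, and the cell names and filters of the authors were not used here.

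UMIs were summed over all barcodes with Python 3.11.15, numpy 2.4.6, scipy 1.17.1 and pandas 2.3.3. Levels have exact Poisson intervals, shares exact binomial (Clopper-Pearson) intervals, and ratios exact conditional intervals. The interval of a difference between ages used the sum of reciprocal counts. Calls needed 1.5-fold and 100 UMIs over both libraries. The steps were tested on simulated data. No barcode was removed as a doublet, and no clusters were made. The members and lists were chosen with earlier results of these data known. Named were all 10 members, the genes with the highest and the lowest ratio of I/R over sham at each age among 87 other lysosomal genes, the 2 cystatins with most UMIs, Tfeb, Psap, Cd63, Cd68, Laptm5 and Grn, and the 2 genes most like each member.

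Alternatives were scaling by the median gene-wise ratio, totals without mitochondrial genes, Gm42418 and Malat1, barcodes with at least 200 genes, without immune markers or with a sequence in 1 library only, a minimum of 20 UMIs, a 2-fold threshold, and 3 markers or markers read after thinning for the barcode groups. Scaling by ribosomal protein genes, a minimum of 1000 UMIs and the difference between ages in barcodes of 1 library only were added after the data were seen. Of the 32285 gene IDs, 32158 were found in GENCODE M21.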

Additional observations from a re-analysis of the deposited data

Results flagged for a closer look

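For 5 genes the I/R library lay above the sham library in young mice and below it in aged mice, with both counting intervals off 0. No share of all genes with such opposite signs was set beside this count. The log2 ratio in young and in aged hearts was 0.57 and -0.52 for Ctsb, 0.46 and -0.37 for Ctsd, 0.31 and -0.56 for Ctsz, 0.54 and -0.15 for Lgmn, and 0.13 and -0.39 for Lamp1. With 1 library on each side the difference was not tested. Relative to ribosomal protein genes this held for Ctsb, at 0.14 (0.082 to 0.19) and -0.25 (-0.29 to -0.22). Ctsd kept the signs, at 0.02 (-0.012 to 0.052) and -0.11 (-0.14 to -0.089), with an interval that held 0, and Ctsz, Lgmn and Lamp1 lost the opposite signs.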

How the results depend on the processing

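No paired analysis was possible because each condition had 1 library. For the same reason no replicate was left out, and the depth of 25836175 to 66767829 UMIs limited Ctsk most, with 50 to 195 UMIs. Except where the UMI minimum is named, the cause of the changes below was not tested.

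For young I/R over young sham the median log2 ratio of the 10 genes, 0.29, was 0.70 with the median gene set to no change, 0.49 in barcodes with at least 200 genes and -0.15 relative to ribosomal protein genes. The count called higher, 1, was 6 with the median gene set to no change, 4 without mitochondrial genes, Gm42418 and Malat1, 3 in barcodes with at least 200 genes, and 0 at 2-fold or relative to ribosomal protein genes. The count called lower, 2, was 0 with the median gene set to no change or at 2-fold, and 1 without mitochondrial genes, Gm42418 and Malat1, in barcodes with at least 200 genes, without immune markers or with a sequence in 1 library only, and at a minimum of 1000 UMIs. Of all genes, 15.9% were called higher and 22.5% lower with the median gene set to no change, and 2.43% and 22.0% at 2-fold. Relative to ribosomal protein genes the shares were 2.35% and 67.4%, and at a minimum of 1000 UMIs 5.49% and 32.7%. No share of all genes was taken under the other settings, here or below.

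For aged I/R over aged sham the median, -0.052, was 0.21 relative to ribosomal protein genes. Lower calls, 0, were 2 with the median gene set to no change or without mitochondrial genes, Gm42418 and Malat1, and higher calls, 1, were 0 at 2-fold and 2 relative to ribosomal protein genes. Of all genes, 9.66% were called lower with the median gene set to no change. Higher calls covered 3.58% of genes at 2-fold and 30.4% relative to ribosomal protein genes. For aged sham over young sham the median, 0.51, was 0.66 with the median gene set to no change and -0.038 relative to ribosomal protein genes, and the 4 higher calls were 7 and 0 under these scalings and 0 at 2-fold. Of all genes, 10.3%, 1.13% and 1.57% were called higher in that order of settings. For aged I/R over young I/R the median, 0.085, was -0.26 with the median gene set to no change, -0.076 without mitochondrial genes, Gm42418 and Malat1, and 0.23 relative to ribosomal protein genes, and lower calls, 0, were 2 with the median gene set to no change. That setting called 11.1% of all genes lower.

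The median difference between ages, -0.54, was -1.02, -0.77 and 0.16 under these 3 scalings, and that of Lgmn, -0.69, was 0.013 relative to ribosomal protein genes. Members called higher in macrophage marker-positive barcodes fell from 3 of 8 to 0 of 3 with 3 markers in young sham. The members counted had over 3 UMIs there and in barcodes with no non-myocyte marker. After thinning they went from 0 of 7 to 1 of 6 in young I/R and from 1 of 9 to 2 of 9 in aged sham. With 3 markers they went from 1 of 10 to 2 of 10 in aged I/R. No share of all genes was set beside these counts. The Ctss ratio in macrophage marker-positive barcodes of aged sham, 0.87, was -0.024 with 3 markers, on 2 UMIs.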
